A study of Sparus aurata with 8 samples.

Results

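A set of 164 gut transcripts of the gilthead sea bream (Sparus aurata), a farmed marine fish, had at least 2-fold higher array signal after feeding with spray-dried porcine plasma (SDPP) and were measured above background in every sample. Each transcript was represented by its brightest probe, the one with the highest mean over the 8 arrays. A transcript entered the set if that probe was well above background on all 8 arrays, if the lowest SDPP pool exceeded the highest control pool, and if the SDPP mean minus the control mean was at least 1 on the log2 scale. Of 15156 sequence names on the array, 5022 were measured above background on all 8 arrays. The set holds 164 of these, or 3.27%. The members were chosen by their diet difference in array signal and by their background flags, so the diet differences are given below as a description and without a test.

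Juvenile fish of 10.6 g were kept for 95 days on a control diet or on a diet with SDPP, in 4 tanks of 50 fish per diet, and the labels give final weights of 82.7 g on the control diet and 88.2 g on SDPP. RNA was hybridised in 4 pools per diet to 1-colour oligonucleotide arrays, and the labels give neither the number of fish in a pool nor its tank. The p-values below therefore measure only the spread between these pools, which may be partly technical. The tissue is gut in titles and source names and anterior intestine in the series text. Skin is the tissue given by another label field and by the extraction text. The labelled tissue could not be checked against its markers, because none of the sequence names has a gene name here. SDPP is the dried plasma fraction of pig blood, which carries immunoglobulins, albumin and other plasma proteins, and it is used as a protein source in feeds for young animals. The anterior intestine of fish takes up lipids, amino acids and sugars through its enterocytes, while mucus-secreting goblet cells and resident leukocytes form its barrier and its local immune defence. The series title frames the study as a question about metabolic and immune processes in this tissue at the transcript level.

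The members carry the sequence names of the array's design, such as Contig2962 or cDN14P0003J20.F.ab1. RefSeq lists 32006 genes for the species, and 0 of the 15156 names were found among their symbols, synonyms and accessions, so no gene name or role is given to a member. By the form of their names, 78 members were single cDN clones (47.6%, against 39.9% of the 5022 measured transcripts), 44 were contigs (26.8% against 30.2%) and 38 were Seabream cluster contigs (23.2% against 26.8%). A further 3 were SCT clones and 1 had another name. Of the members, 86 had a single probe on the array and 78 had 3 probes.

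All values below are log2 processed signals relative to the array's 75th percentile over spots that are not controls, so that 0 is that percentile. Between 15488 and 30641 of 43803 such spots per array were well above background, a mean of 24050 ± 5001 for control and of 20107 ± 4153 for SDPP (SD, n = 4). Before scaling, the 5 spike-in probes that could be used averaged 15.4 ± 0.12 log2 units for control and 14.8 ± 0.36 for SDPP (SD, n = 4). The part of these array differences in the results was not tested, but other scalings were run. The median difference of all 5022 measured transcripts was 0.14 in the scaling used, and from -0.10 to 0.43 in the others. The median member lay 1.21 above that median in the scaling used. Median, spike-in and detected-probe scaling shift a whole array by 1 value, so they could not alter this excess. It was 1.21 with quantile scaling, 1.12 with normexp background correction and 1.21 with the deposited values. The number of arrays limits the precision. Array signal in bulk tissue cannot tell more cells of a type from more RNA per cell.

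The median member stood at 0.64 ± 0.16 over the control pools and at 2.06 ± 0.17 over the SDPP pools (SD of the 4 pool medians, n = 4). By pool, the median member had a value of 0.54, 0.88, 0.53 and 0.62 in control pools 1 to 4 and of 2.06, 2.03, 1.87 and 2.27 in SDPP pools 1 to 4. All 4 SDPP medians thus lay above all 4 control medians, which the choice of the members fixes. Control pool 2 was the highest of the control pools and SDPP pool 4 the highest of the SDPP pools. Over all 5022 measured transcripts the pool medians were nearly level, between 0.73 and 0.77 on the control diet and between 0.81 and 0.86 on SDPP.

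**Figure D1:**
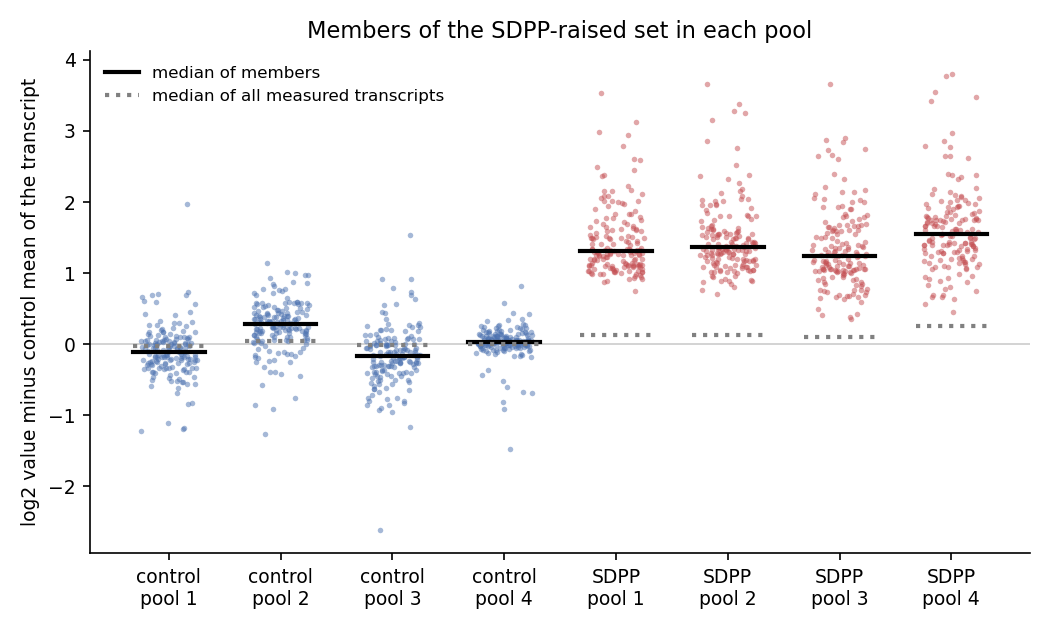
Each point is 1 of the 164 members, plotted as its log2 value in a pool (horizontal axis, 4 control and 4 SDPP pools) minus its own control mean (vertical axis, log2). Black bars are medians of the members, at 1.31, 1.36, 1.25 and 1.55 in SDPP pools 1 to 4, and dotted bars are medians of all measured transcripts, at 0.12, 0.13, 0.10 and 0.26. Control pool 4 lies close to 0 for most members, with a median of 0.03.

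The differences were mostly moderate. The median member differed by 1.36 and the range was 1.00 to 3.67 on the log2 scale. A difference of at least 1.5 was seen in 54 members, of at least 2 (4-fold) in 16, and of at least 3 (8-fold) in 4. Among the 5022 measured transcripts these numbers were 63, 18 and 4. Among the 5022 measured transcripts, 1195 had all SDPP pools above all control pools, or 23.8%, and the rule took from these the ones with at least a 2-fold difference. A further 19 measured transcripts reached the difference of 1 but had pools of the 2 diets that overlapped. In the opposite direction, 92 transcripts met the same criteria. The space between the lowest SDPP pool and the highest control pool had a median of 0.72 over the members. It was at least 1 in 38 members and under 0.25 in 15, against 38 and 4615 of the 5022 measured transcripts.

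Members were found at every level of probe signal. Of the 164, 53, 33, 39 and 39 fell into 4 equal bins of the measured transcripts, ordered from dim to bright by control mean.

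**Figure D2:**
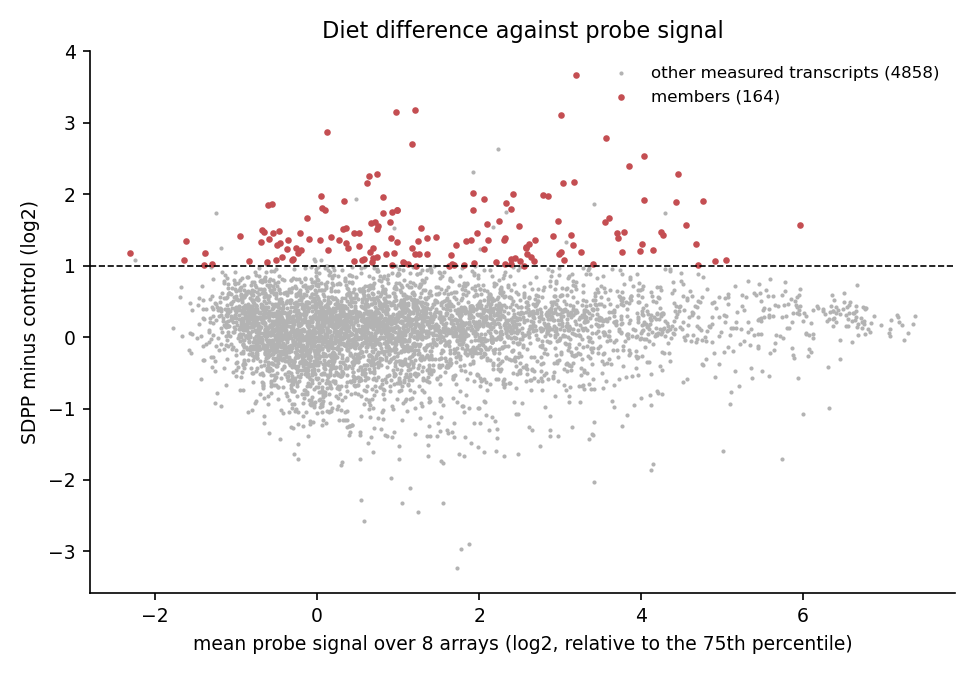
Mean probe signal over 8 arrays (horizontal axis, log2 relative to the 75th percentile) against SDPP minus control (vertical axis, log2) for the 5022 measured transcripts, with the 164 members in red and the dashed line at the threshold of 1. Grey points above the line are the 19 transcripts whose diets overlapped.

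A limma fit covered 6754 transcripts, those above background in all 4 pools of either diet, and 898 were called higher on SDPP at a Benjamini-Hochberg adjusted p below 0.05, or 13.3%. Of the 164 members, 160 were among them. The rule used the same contrast, so nothing is read from this count. The background count depended on the scaling and on single arrays. Of 1460 transcripts called in either direction, 898 were higher on SDPP. This split was 1503 of 1891 with median scaling, 730 of 980 with spike-in scaling, 579 of 1371 with the percentile taken over detected probes alone, and 213 of 952 with the deposited values unscaled or 151 of 516 with them scaled. Leaving out control pool 1, 3 or 4 gave 431, 420 and 330 called higher, in that order. Leaving out SDPP pool 1 or 2 gave 451 and 404. The number called higher fell less, to 870 and 632, on omitting control pool 2 or SDPP pool 4. It rose to 1195 once SDPP pool 3 was dropped. The count of members called was 25 without control pool 4 and SDPP pool 1, where 30 of all 6861 transcripts were called higher. It was 0 when SDPP pool 2 was left out too, where 0 of all 7118 transcripts were called. These pools lay near averages of others, and leaving them out was a choice made after seeing the data. The part of these pools in the count was not tested. The standard error of the difference had a median of 0.21 over the members and ran from 0.10 to 0.84. The 4 members not called were cDN11P0006A06.F.ab1, cDN03P0003F23.F.ab1, Contig891 and cDN11P0001C19.F.ab1, of which cDN03P0003F23.F.ab1 was named after its values were seen.

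Contig2962 had the largest difference. Its values were 1.34, 2.11, 0.60 and 1.40 in control pools 1 to 4 and 4.90, 5.03, 5.02 and 5.17 in SDPP pools 1 to 4. The SDPP pools were nearly level and all stood at least 2.79 above the highest control pool, whereas the control pools were spread, with pool 2 high and pool 3 low. The control mean of 1.36 ± 0.62 and the SDPP mean of 5.03 ± 0.11 (SD, n = 4) gave a difference of 3.67 or 12.7-fold. Its other 2 probes gave differences of 3.75 and 3.72, with pool 2 the highest control pool and pool 3 the lowest in both.

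For Seabream_2006-01-03-CL3256Contig1 the control values were -0.85, 0.55, -1.19 and -0.06 and the SDPP values 2.73, 2.86, 2.51 and 3.09. Here too control pool 2 was the highest and pool 3 the lowest, and the diets were 1.96 apart at their closest. The difference of means was 3.19 (9.10-fold), from -0.39 ± 0.78 to 2.80 ± 0.24 (SD, n = 4).

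Transcript cDN14P0003J20.F.ab1 had -0.61, -0.36, -1.07 and -0.37 in control pools 1 to 4 against 2.34, 2.67, 2.28 and 2.94 in SDPP pools 1 to 4. It had the second widest space between the diets, 2.64, with a spread that was similar on both diets (SD 0.33 and 0.31, n = 4) and a difference of 3.16 (8.93-fold).

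The control pools of cDN13P0005E13.F.ab1 measured 1.20, 2.43, 0.69 and 1.51 and its SDPP pools 4.45, 4.62, 4.31 and 4.88. Its difference was 3.10 (8.60-fold), and control pool 2 was again high and pool 3 low. The same order of control pools, 3 below 1 below 4 below 2, held for Seabream_2006-01-03-CL2371Contig1, at 1.88, 3.14, 1.24 and 2.40 in control pools 1 to 4. On SDPP it had 4.77, 5.03, 4.90 and 5.14, a difference of 2.79 (6.93-fold), with no overlap.

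Contig3553 showed 2.42, 3.49, 2.36 and 2.80 on the control diet and 5.26, 5.29, 5.10 and 5.54 on SDPP. It repeated the high control pool 2 and differed by 2.53 (5.77-fold), and its other 2 probes gave 2.49 and 2.66.

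Other patterns were seen among the 8 members with the largest differences. In Contig3067 the SDPP pools were graded, at 1.48, 2.06, 0.24 and 2.45 in pools 1 to 4, against -0.60, -1.63, -1.97 and -1.05 in the control pools. SDPP pool 3 lay only 0.84 above the highest control pool, so the difference of 2.87 (7.32-fold) has an SD of 0.97 on SDPP and of 0.61 on the control diet (n = 4). The 2 further probes of Contig3067 gave 2.84 and 3.17, both with SDPP pool 3 lowest and pool 4 highest.

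Transcript cDN11P0006A06.F.ab1 was the reverse case, with control values of 1.78, -0.35, -2.81 and 0.63 and SDPP values of 2.41, 2.57, 2.42 and 2.67. The control pools spanned 4.59 log2 units and the SDPP pools 0.26. Its difference of 2.70 had a control SD of 1.95 and an SDPP SD of 0.13 (n = 4). The limma adjusted p was 0.0514, so it was not called.

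**Figure D3:**
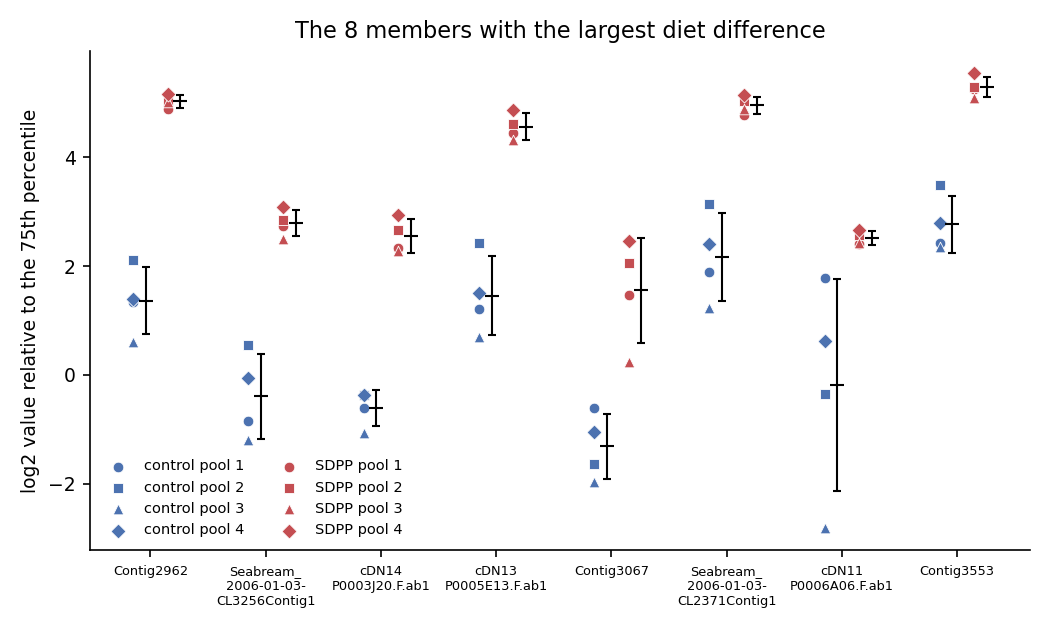
Log2 value relative to the 75th percentile (vertical axis) of the 8 members with the largest diet difference, by sequence name (horizontal axis), with control pools in blue and SDPP pools in red. Black bars beside each set give the mean ± SD of 4 pools, with an SD of 1.95 for the control pools of cDN11P0006A06.F.ab1 and of 0.13 for its SDPP pools.

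Likeness of members over the pools was measured as a correlation of the 8 deviations from the diet means. This correlation takes in the SDPP pools too and does not measure the order of the control pools alone. For Contig2962 it was 0.97 with Seabream_2006-01-03-CL2371Contig1, 0.95 with cDN13P0005E13.F.ab1, 0.90 with Seabream_2006-01-03-CL3256Contig1 and 0.87 with Contig3553. It was 0.74 with cDN14P0003J20.F.ab1, 0.52 with cDN11P0006A06.F.ab1 and 0.19 with Contig3067. Over all 13366 pairs of members the median correlation was 0.29, against 0.04 over all pairs of measured transcripts, and 5.50% of member pairs reached 0.9, against 2.48%. These correlations rest on 8 arrays and on shared arrays, and are a description.

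Control pool 2 had the highest control value in 115 of the 164 members (70.1%), against 40.6% of the 5022 measured transcripts. Control pool 3 had the lowest in 81 (49.4% against 25.4%). Control pool 1 had the lowest in 56 (34.1% against 36.8%). The control pool closest to the SDPP pools was thus pool 2 in most members, while the farthest was divided between pools 3 and 1. Control pool 4 lay within the range of control pools 1 to 3 in 142 members (86.6%), and in 77.5% of all measured transcripts. Its median distance from their linear-scale average was 0.09 log2 units over the members and 0.07 over all measured transcripts.

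The most frequent order of the SDPP pools was the same in the members and in all measured transcripts, but it was more frequent in the members. SDPP pool 4 was the highest in 104 members (63.4%, against 53.2% of measured transcripts) and SDPP pool 3 the lowest in 86 (52.4% against 44.4%). Both held at once in 83 members (50.6% against 38.4%), and the reverse order, pool 3 highest and pool 4 lowest, in 23, where among the 5022 measured transcripts the reverse held in 1078. Pool 4 exceeded pool 3 by at least 1.5-fold in 50 members (30.5% against 18.9%), and pool 3 exceeded pool 4 by as much in 15 (9.15% against 16.7%). SDPP pools 1 and 2 lay between pools 3 and 4 in 116 and 118 of 164 members, and in 3767 and 3403 of the 5022 measured transcripts, which are similar shares. Their median distance from the linear-scale average of pools 3 and 4 was 0.12 and 0.08 log2 units over the members and 0.11 and 0.13 over all measured transcripts. The median member had pool 4 above pool 3 by 0.26, a small part of its diet difference of 1.36. Over all measured transcripts the median of pool 4 minus pool 3 was 0.17.

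Among the members with the widest SDPP range, Contig891 had -0.35, 0.30, -0.93 and 1.36 in SDPP pools 1 to 4, a range of 2.29, above control values of -1.33, -1.15, -1.40 and -1.26. Its control pools were tight and SDPP pool 3 lay only 0.22 above them. Neither of the other probes of Contig891 was above background on all arrays. In 1 of them SDPP pool 3 was again lowest, at -2.95, and the diets overlapped. In the other SDPP pool 3 was the highest, at -1.33. In Contig3767 the SDPP values were 2.19, 2.62, 1.47 and 3.14 and the control values 0.88, 1.25, 1.01 and 1.10. All 3 probes of Contig3767 had the order pool 3, 1, 2, 4 on SDPP, with differences of 1.29, 1.23 and 1.26 in turn.

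The narrowest SDPP ranges were those of cDN02P0006D15.F.ab1, Contig788 and Contig3440, at 0.06, 0.08 and 0.08. In cDN02P0006D15.F.ab1 the SDPP pools measured 3.04, 3.05, 3.09 and 3.06 and the control pools 0.75, 2.02, 1.30 and 1.67. The SDPP pools were nearly equal while the control pools spanned 1.27. The control pools of Contig788 spanned only 0.36, at 3.21, 3.57, 3.36 and 3.37, below SDPP values of 4.56, 4.59, 4.63 and 4.56. Contig3440 stood at 3.28, 3.88, 2.96 and 3.32 on the control diet and at 4.62, 4.64, 4.70 and 4.68 on SDPP.

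As a set, the members varied more among control pools than among SDPP pools, which is a description because the same values chose them. Their median range was 0.74 over the control pools and 0.50 over the SDPP pools, whereas over all measured transcripts it was 0.38 and 0.48. The control range exceeded the SDPP range in 108 members (65.9%), against 39.9% of measured transcripts. A control range of at least 1 was found in 48 members (29.3%, against 9.36% of measured transcripts) and an SDPP range of at least 1 in 18, against 754 of the 5022 measured transcripts. Control pools within 0.25 of each other were found in 7 members (4.27%), against 26.6% of measured transcripts.

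**Figure D4:**
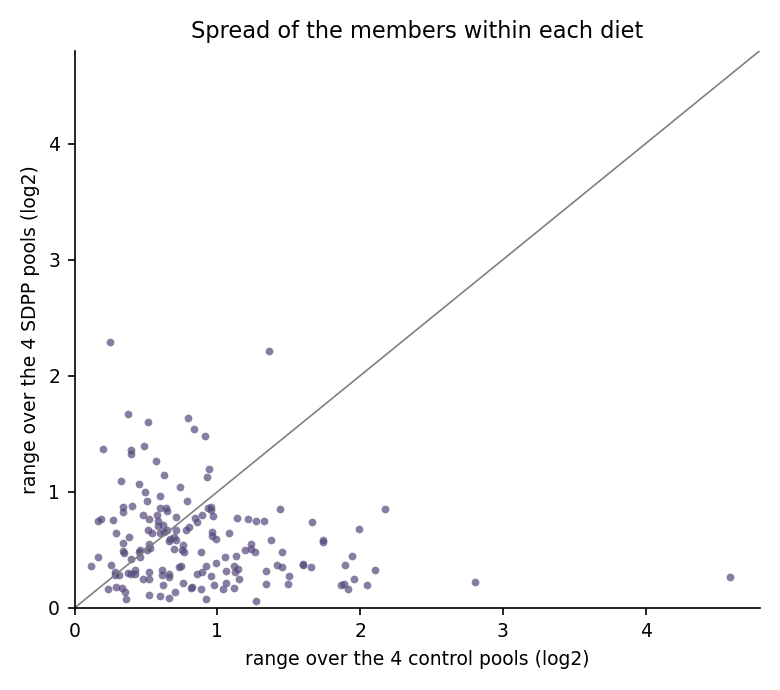
Range over the 4 control pools (horizontal axis, log2) against range over the 4 SDPP pools (vertical axis, log2) for the 164 members, with the line of equal ranges. Points below the line, 108 of 164, are members more spread on the control diet, the farthest of them cDN11P0006A06.F.ab1 at 4.59 and 0.26.

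The brightest member probes showed this too. For SCT750_C04_T3_JP5_2_C4_028.ab1 the control pools measured 3.99, 6.04, 5.17 and 5.53 and the SDPP pools 6.71, 6.74, 6.69 and 6.88. The control pools spanned 2.05 and the SDPP pools 0.20, and its 3 probes gave differences of 1.57, 1.62 and 1.74. In cDN11P0006L22.F.ab1, control pool 3 was the highest rather than the lowest, at 3.25, 3.36, 4.59 and 4.03 in pools 1 to 4, and SDPP stood at 5.69, 5.77, 5.81 and 5.61. Its difference was 1.91 (3.76-fold), with 1.97 and 2.01 from its other probes. Of the 43803 spots per array that are not controls, 0 were saturated.

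The remaining bright probes were close to the threshold. Transcript cDN02P0004H05.F.ab1 had 4.39, 5.21, 3.61 and 4.83 on the control diet and 5.59, 5.64, 5.76 and 5.39 on SDPP, a difference of 1.08 with only 0.18 between the nearest pools. For cDN11P0001C19.F.ab1 the control pools were at 3.27, 5.16, 4.57 and 4.53 and the SDPP pools at 5.33, 5.43, 5.50 and 5.54. Its difference was 1.07, but a second probe above background on all arrays gave 2.70. Among other probes above background on all arrays this was the widest excess over the chosen one. The third probe of this transcript, which was not above background on all arrays, gave 3.17.

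Further probes of the members mostly gave the same size of difference. Of 156 such probes, 119 were above background on all 8 arrays, and they belonged to 66 members. Of these 119, 118 were higher on SDPP and 100 by at least 1. In 110 of them all SDPP pools lay above all control pools, against 1195 of the 5022 measured transcripts. These probes read the same RNA as the probe that chose the transcript, so they bear on the probe and not on the diet. Their difference lay within 0.25 of the chosen probe in 101 of 119, with a median departure of 0.10. In 53 of the 66 members every such probe reached 1. Probes that were not above background on all 8 arrays are left out of these counts. Most of them were higher on SDPP. Lower on SDPP were both of cDN11P0002K21.F.ab1 (-1.51 and -1.12) and of Contig658 (-0.34 and -0.06), and 1 of Contig1857 (-0.495). The chosen probes of these members gave 1.78, 1.33 and 1.04, and the members were named after their values were seen.

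A few members disagreed among their probes, and they were named after their values were seen. In Contig2747 the chosen probe gave 1.62 and the others 1.55 and -0.13, the last with SDPP pool 4 low, at -1.41. In cDN02P0002F07.F.ab1 the chosen probe gave 1.77 and the others 1.30 and 0.49. Seabream_2006-01-03-CL2043Contig1 had 2.02 from the chosen probe and 0.79 and 0.77 from the others, in which SDPP pool 4 was low, at -2.57 and -2.70. For these 3 the size of the change depends on the probe, and they are not the only such members. In Seabream_2006-01-03-CL4680Contig1 the chosen probe gave 1.19 and the others 0.53 and 0.71. In cDN12P0004A16.F.ab1 the chosen probe gave 1.13 and the others 0.93 and 0.63, the last with overlapping diets.

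**Figure D5:**
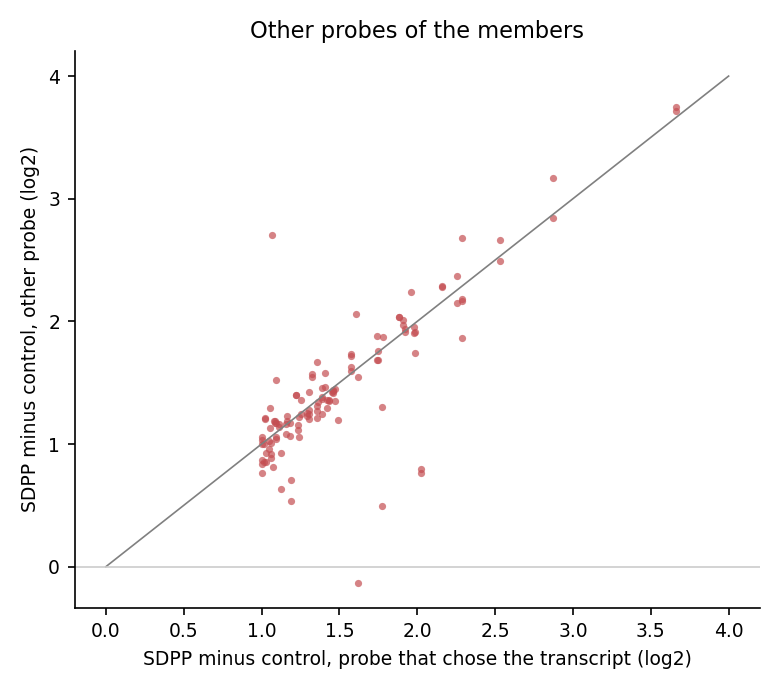
SDPP minus control (log2) from the probe that chose the transcript (horizontal axis) against the same from its other probes above background on all arrays (vertical axis), 119 probes of 66 members, with the line of equal values. The points farthest below the line include Contig2747 at 1.62 and -0.13, and the point farthest above it is cDN11P0001C19.F.ab1 at 1.07 and 2.70.

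Copies of a probe within an array differed little. For the 110 members whose probe was printed in 2 copies, the median SD between copies was from 0.04 to 0.11 log2 units on the 8 arrays. The median SD between pools was larger, at 0.33 on the control diet and 0.22 on SDPP. This SD is of values averaged over copies and covers all 164 members, of which 54 had a probe in 1 copy.

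Each pool was also left out in turn, the rule was applied to the other 7 arrays, and the left-out pool was then compared with the opposite diet. The pools of the opposite diet helped to choose these transcripts, so high shares are partly fixed by the choice, and the values are a description. Without SDPP pool 1, 171 transcripts met the rule. Pool 1 exceeded all control pools in 170 of them (99.4%, against 42.0% of all transcripts measured on the other 7 arrays). Control pool 4, left out in the same way, lay below all SDPP pools in 165 of 166 (99.4% against 42.4%). These are pools that lie near averages of others, and whether they are separate samples is not known from the labels.

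The other 6 pools gave shares from 89.2% to 97.6%, against 38.3% to 52.1% of all transcripts measured on the other arrays. SDPP pool 3 exceeded all control pools in 189 of 212 transcripts chosen without it (89.2% against 39.4%). SDPP pool 4 did so in 148 of 159 (93.1% against 52.1%). Control pool 1 lay below all SDPP pools in 171 of 187 (91.4% against 45.9%). For control pool 2 it was 207 of 217 (95.4% against 38.8%) and for control pool 3 156 of 162 (96.3% against 42.8%). SDPP pool 2 exceeded all control pools in 165 of 169 (97.6% against 38.3%). Over the members SDPP pool 2 also lay near the average of SDPP pools 3 and 4, so the same limit holds for its share. Control pools 1 to 3 and SDPP pools 3 and 4 share this limit. When any of these was left out, a pool near their average stayed among the choosing arrays.

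The size of the difference in a left-out pool was smallest for control pool 2 and SDPP pool 3. Transcripts chosen without control pool 2 differed by a median of 1.00 when the SDPP mean was set against that pool, and by 1.30 against the other control pools. Those chosen without SDPP pool 3 differed by a median of 1.05 in that pool and by 1.33 in the other SDPP pools. Over all transcripts measured on the other arrays the median was 0.11 for control pool 2 and 0.10 for SDPP pool 3. For each of the other 6 pools the median of the chosen transcripts was at least 1.29. A difference of at least 2-fold was seen in 108 of 217 transcripts for control pool 2 and in 119 of 212 for SDPP pool 3. The share over all measured transcripts was not counted, so nothing is read from these counts.

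The 8 arrays lay on 6 slides, and 2 slides carried a pool of each diet. On both of these the control array was at position 1 and the SDPP array at position 2. Diet and array position therefore cannot be told apart within a slide. On slide 1, SDPP pool 3 exceeded control pool 1 in 164 of 164 members by a median of 1.35, with a lowest value of 0.24. SDPP pool 4 exceeded control pool 2 on slide 2 in 164 of 164 by a median of 1.26, with a lowest value of 0.12. Over all measured transcripts the median was 0.13 on slide 1 and 0.24 on slide 2. The arrays of both slides are among those that chose the members. The sign on both slides is therefore fixed by the rule and the size is raised by it. At least 2-fold was reached by 131 members on slide 1 (79.9%, against 5.95% of measured transcripts), by 119 on slide 2 (72.6% against 6.79%) and by 88 on both (53.7% against 1.93%), and nothing is read from these counts. The 4 arrays alone on their slides gave a median of 1.38 for the same members. With slide as a fixed block the median member difference was 1.30, an estimate that rests on slides 1 and 2 alone. In that fit 0 of all 6754 transcripts and so 0 members were called, with 123 members at an unadjusted p below 0.05. That limma fit has 1 residual degree of freedom.

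The members just inside the threshold were cDN08P0003F04.F.ab1, Seabream_2006-01-03-CL2494Contig1 and Contig1883, with differences of 1.001, 1.001 and 1.003. The measured transcripts just outside it, also with no overlap of the diets, were cDN13P0005L05.F.ab1, cDN12P0004J09.F.ab1 and Contig580, at 0.9996, 0.998 and 0.997. In cDN08P0003F04.F.ab1 the control pools measured 2.00, 2.40, 1.89 and 1.91 and the SDPP pools 3.24, 2.75, 3.08 and 3.13. In cDN13P0005L05.F.ab1 they measured -0.54, -0.10, -0.53 and -0.41 against 0.48, 0.66, 0.29 and 1.00. The SDs within a diet were 0.24 and 0.21 in the former and 0.21 and 0.31 in the latter (n = 4).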

How the data were processed

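Expression in 8 gut RNA pools, 4 per diet by their titles, was measured on 1-colour Cy3 arrays from 200 ng of RNA. The authors deposited spot intensities, and per the file headers the software was Agilent Feature Extraction, version 10.7.3.1. Its processed signal is a background-subtracted intensity, but not the same quantity as its background-subtracted signal. The deposited value table is in log2 units, differs by at most 5e-09 from log2 background-subtracted signals and served as an alternative. With the same percentile scaling, 115 transcripts met the rule with deposited values, against 164 with processed signals. Here each array's 75th percentile over spots that are not controls was subtracted from its log2 processed signals, with no outlier spots removed, and spots of a probe were averaged. A probe counted as above background if at least 50% of its spots did. The difference was fitted by lmFit and eBayes (R 4.3.3, limma 3.58.1; two-sided, Benjamini-Hochberg), on probes above background on all 4 arrays of at least 1 diet. The limma script was tested on simulated data with independent errors on each array, which cannot show the effect of likeness between pools. Named transcripts are the 8 members with the largest difference, the 4 brightest, the 4 with the widest space between the diets, the 3 with the widest and the 3 with the narrowest SDPP range, and 3 on each side of the threshold. The members, these lists and the tests were chosen with earlier results of these data known. No gene list or marker list could be applied, since no name matched a gene. Alternatives covered scaling, background, filters, probe choice, slide and pool number as blocks, array weights, a trended prior and leaving out arrays.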

Additional observations from a re-analysis of the deposited data

Results flagged for a closer look

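In 48 sets of 4 pools (the 20 named members on each diet, and 4 array-level values on each diet), 0 had a pool far from the others of its diet by Dixon's criterion. Chance gives about 1 in 20 for independent sets, but these share arrays and the members were chosen by their values. The other members were not examined. In Seabream_2006-01-03-CL4403Contig1, named after its values were seen, control pools 1 to 4 measured -1.74, -1.72, -2.41 and -1.76.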

How the results depend on the processing

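The number of transcripts that met the rule, 164, was 313 with median scaling, 335 with spike-in scaling, 95 with deposited values left unscaled, 540 at 1.5-fold and 54 at a log2 difference of 1.5. The other 19 alternatives gave 115 to 217, and leaving out 1 array gave 159 to 217. Of the 164, 158 were among the 335 and 92 among the 95. Of the 164 members, limma called 160 higher, and 107 to 164 under 23 alternatives, with 134 to 159 on leaving out 1 array. It called 0 members with slide as a fixed block, where 0 of all 6754 transcripts were called. Without control pool 4 and SDPP pool 1 it called 25 members higher, and 30 of all 6861 transcripts. Without control pool 4 and SDPP pools 1 and 2 it called 0 members and 0 of all 7118 transcripts. Fewer arrays remain in the last 2 fits, where 164 and 151 members had an unadjusted p below 0.05. The rule used the same contrast, so nothing is read from these counts. Over all transcripts, the 898 called higher became 2490 with array weights, 457 with normexp, 428 with the replicate block and 185 with no filter. In the fit with the replicate block (pool number), 153 were called, and 783 of all 6754 transcripts in place of 1460. Same-numbered pools did not deviate together over the transcripts as a whole, with correlations across transcripts from -0.04 to 0.05. The labels link these pools only by number, and a factor shared by them in a few transcripts was not tested. The median difference of the members, 1.36, was between 1.11 and 1.64 under 21 alternatives (1.29 to 1.43 on leaving out 1 array). Each alternative used the same 164 members, which were chosen by this difference. These medians are therefore partly fixed by the choice and are a description. Choices that leave out more than 1 array were made after seeing the data. Apart from fewer arrays, the cause of these changes was not tested. For the 86 members with 1 probe, disagreement between probes could not be examined.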
